A study of Mus musculus with 33 samples.

Results

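Pou5f1, Klf4 and Myc are 3 of the genes whose forced expression turns fibroblasts into induced pluripotent stem (iPS) cells. They were taken as all probes that carry these symbols in the annotation of the 2 Illumina bead array platforms used, 3 of 17892 genes in all. Each platform held 7 such probes, 2 for Pou5f1, 3 for Klf4 and 2 for Myc, and 6 of them were on both. On the larger platform 6 of the 7 passed the detection filter and were tested.

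The arrays measured total RNA of mouse cells in 11 groups of 3 arrays. OKMS6 is a line of mouse embryonic fibroblasts that were transduced with virus and reprogrammed only in part; its labels name viral Sox2 and do not say which other factors were delivered. It was measured with RepSox, an inhibitor of the TGF-beta type I receptor kinase, and untreated, each at 10, 24 and 48 h. The iPS line was derived with RepSox in place of viral Sox2 and sat alone on a platform of 24613 probes, so for it cell type and platform cannot be told apart, and its values are given with no test. The embryonic stem cell lines R1 and V6.5, fibroblasts after 1 week with RepSox and untreated fibroblasts (MEF) shared the other platform of 25697 probes with OKMS6. All OKMS6 arrays came from the 1 line, and the labels do not say whether replicates were separate cultures, so a p-value here measures the spread between arrays alone, and that spread may be technical. Gelatin-coated dishes were used, some with irradiated fibroblasts as feeders, and the sources used here do not give which cultures had them.

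Pou5f1, also called Oct4, is a POU homeodomain transcription factor of early embryos and germ cells that binds DNA together with Sox2 and holds embryonic stem cells in the pluripotent state. Klf4 is a zinc finger factor that binds GC-rich sequences and is found in stem cells and also in fibroblasts and epithelia. Myc pairs with Max on E-box sequences and drives genes of growth, ribosome building and metabolism, and Max also pairs with the Mxd proteins and Mxi1, which act against Myc. Viral reprogramming vectors carry the coding sequence of a factor under a viral promoter, so a transduced line can make a factor's RNA from the virus, from its own gene or from both. The sources used here do not give where on a transcript each probe lies, so which copy a probe reads was not tested.

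The genes lie in build GRCm38.p6 on chromosome 17 at 35506032 to 35510777 (Pou5f1), chromosome 4 at 55527137 to 55532475 (Klf4) and chromosome 15 at 61985341 to 61990361 (Myc), per a RefSeq gene table. That table also lists 7 Pou5f1 pseudogenes, so signal shared with near copies is uncertain for Pou5f1. The promoters of Pou5f1 and Klf4 are shown because a viral copy would not carry them. They run from 250 bases before the start site to 50 after it (RefSeq, GRCm38.p6), at chr17:35505782-35506081 on the plus strand and chr4:55532426-55532725 on the minus strand. Capitals mark the E-box CACGTG, the GC box GGGCGG and its reverse complement CCGCCC, and the octamer ATGCAAAT.
Pou5f1: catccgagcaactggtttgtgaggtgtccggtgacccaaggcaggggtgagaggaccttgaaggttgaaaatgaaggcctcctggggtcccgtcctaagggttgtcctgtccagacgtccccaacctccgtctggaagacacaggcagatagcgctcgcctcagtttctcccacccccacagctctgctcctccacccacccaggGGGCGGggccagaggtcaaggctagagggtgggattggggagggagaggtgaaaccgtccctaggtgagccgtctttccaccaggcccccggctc
Klf4: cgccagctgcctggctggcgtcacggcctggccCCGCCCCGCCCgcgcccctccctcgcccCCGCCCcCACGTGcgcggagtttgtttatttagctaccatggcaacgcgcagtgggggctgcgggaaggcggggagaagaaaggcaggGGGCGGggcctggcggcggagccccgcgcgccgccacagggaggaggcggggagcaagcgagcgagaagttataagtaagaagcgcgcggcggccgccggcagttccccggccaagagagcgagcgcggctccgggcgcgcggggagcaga
Searched on both strands, the GC box matched 1 time in the Pou5f1 promoter and 4 times in that of Klf4, where 2 of the matches overlap by a shared base, and 35.66% of 32851 promoters hold it. The E-box matched 1 time in Klf4 and 0 times in Pou5f1, against 7.15% of promoters that hold it. The octamer matched in neither, and 1.735% of promoters hold it. The matches describe letters only.

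Values are log2 intensities after background correction and quantile normalization, and a probe was called detected on an array at a detection p under 0.05. Mean scanner signals were 147 to 327 on OKMS6 arrays, 374 to 429 on R1 arrays, 94.9 to 113 on fibroblast arrays and 375 to 429 on iPS arrays. V6.5 replicates 1 and 3 stood apart with mean signals of 66.6 and 79.5 and 31.4% and 28.7% of probes detected, against 329 and 47.3% for replicate 2, so V6.5 was left out of the fit and its values are given per array. Of 9 stem cell markers, all were detected on every R1 array, 3 to 7 on OKMS6 arrays, with Esrrb and Dppa3 on none of these, and 1 or 2 on fibroblast arrays. The iPS arrays detected 8 of 8 stem cell markers and also 9 of 9 fibroblast markers. The fibroblast markers averaged 7.81 to 7.95 on the log2 scale there, against 5.38 to 5.49 in R1 and 8.92 to 9.01 in untreated fibroblasts. The larger platform held 8 of the fibroblast markers and was normalized separately, so these averages compare only roughly. The names of the treated and untreated arrays numbered 3 at 48 h are exchanged between the authors' scanner table and their processed table, so the 48 h results for these genes and lists, taken from the scanner table, are also given without both arrays. Those 2 arrays were brighter, with mean signals of 304 and 327 against 192 to 209 on the other 48 h arrays.

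After normalization the Pou5f1 level in untreated OKMS6 cells overlapped that of R1 stem cells, and in fibroblasts Pou5f1 was not detected. Probe ILMN_1217100 read 10.56 to 10.93 over the 9 untreated OKMS6 arrays (median 10.75), against 10.37, 10.84 and 10.89 in R1. In untreated fibroblasts it read 4.43, 4.55 and 4.45, detected on none. The OKMS6 and R1 arrays overlapped, and both stood far above the fibroblasts. In bulk RNA such as this, fewer cells with a transcript and less of it per cell cannot be told apart. Probe ILMN_1252910 read 11.24 to 12.12 in untreated OKMS6 cells (median 11.63), against 11.43, 11.71 and 11.73 in R1, and 4.27, 4.44 and 4.39 in untreated fibroblasts. OKMS6 minus R1 was 0.06 ± 0.12 (SE; 95% interval -0.19 to 0.31; adjusted p = 0.692) for the first probe and -0.03 ± 0.12 (-0.27 to 0.20; adjusted p = 0.816) for the second. With arrays scaled to their medians in place of quantile normalization, these differences were 0.40 and 0.27 with both called higher in OKMS6, while the median over all probes was 0.20 on that scale and 0.06 on the main one. Before normalization, scanner intensities did not overlap. They were at most 2355 and 5127 on untreated OKMS6 arrays and at least 2639 and 5724 on R1 arrays. The R1 arrays were also brighter over all probes, as given above. Against fibroblasts, where neither probe was detected, OKMS6 was at least 61.9-fold and 110-fold higher and R1 at least 59.4-fold and 113-fold higher. These are lower bounds: on each fibroblast array the dim value was the probe's own signal or the lowest signal among detected probes, whichever was higher.

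Klf4 gave opposite readings by probe. Probe ILMN_1221264 read 8.60 to 9.59 in untreated OKMS6 cells (median 9.04), against 6.32, 6.28 and 6.67 in R1 and 5.76, 5.40 and 5.63 in untreated fibroblasts. Probe ILMN_1241903 read 9.62 to 10.77 in untreated OKMS6 cells (median 10.12), against 7.36, 7.48 and 7.47 in R1 and 6.23, 6.18 and 6.28 in untreated fibroblasts. On these 2 probes every OKMS6 array was above every R1 array, which in turn was above every fibroblast array. Probe ILMN_2999439 ran the other way. It read 4.31 to 4.95 over all 18 OKMS6 arrays, treated and untreated, and was detected on 1 of them, an untreated array at 10 h. In R1 it read 8.45, 8.13 and 8.0, and in untreated fibroblasts 8.0, 7.96 and 7.88, detected on every array. ILMN_2999439 was thus bright in R1 and fibroblasts and near background in OKMS6, on the same arrays on which the other Klf4 probes were brightest.

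In the fit, untreated OKMS6 minus R1 was 2.57 ± 0.14 for ILMN_1221264 (adjusted p = 3.68e-15) and 2.67 ± 0.14 for ILMN_1241903 (adjusted p = 4.88e-15), 5.92-fold and 6.36-fold higher. ILMN_2999439, detected on 1 of 9 untreated OKMS6 arrays and on 3 of 3 R1 arrays, was at least 10.4-fold lower in OKMS6. It passed the detection filter only because of R1 and fibroblast arrays and could not be called higher in OKMS6. No p-value is therefore given for this direction. Against fibroblasts the differences of OKMS6 were 3.39 ± 0.14 and 3.88 ± 0.14 for ILMN_1221264 and ILMN_1241903, and ILMN_2999439 was at least 8.81-fold lower. R1 minus fibroblasts was 0.83 ± 0.17 (adjusted p = 7.92e-05) and 1.21 ± 0.17 (adjusted p = 7.61e-07) for the probes that were bright in OKMS6, and 0.24 ± 0.12 (adjusted p = 0.0788) for ILMN_2999439, which was 0.34 and called without R1 replicate 3.

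The probes of a gene were also set against each other on the same array, as a difference of log2 values. These differences were looked at after the split was seen and are given as a description, without p-values. ILMN_1241903 minus ILMN_2999439 averaged 5.57 ± 0.44 in untreated OKMS6 cells (SD, n = 9), against -0.75 ± 0.29 in R1 and -1.72 ± 0.10 in untreated fibroblasts (SD, n = 3 each). ILMN_1221264 minus ILMN_2999439 averaged 4.46 ± 0.42 in untreated OKMS6 cells, against -1.77 ± 0.41 in R1 and -2.35 ± 0.18 in untreated fibroblasts. The sign was thus opposite between OKMS6 and the other cells, and the OKMS6 values rest on a probe near background there. ILMN_1221264 minus ILMN_1241903 averaged -1.12 ± 0.13 in untreated OKMS6 cells, against -1.02 ± 0.20 in R1 and -0.63 ± 0.15 in untreated fibroblasts, negative in all 3.

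**Figure D1:**
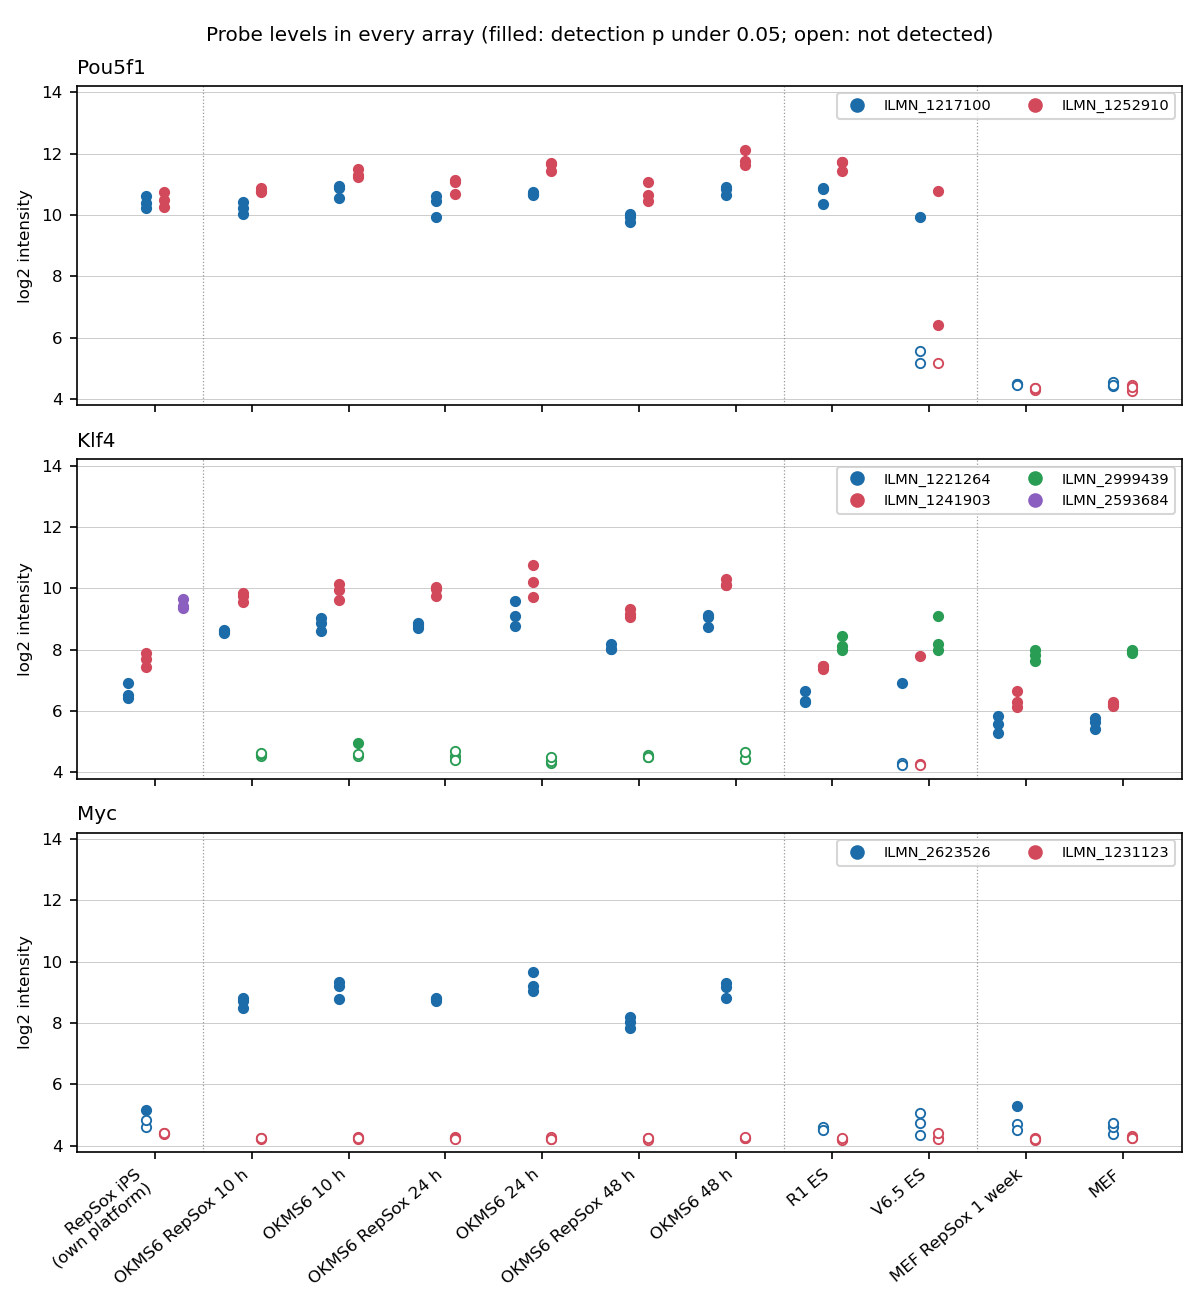
Log2 intensity of every Pou5f1, Klf4 and Myc probe on every array (points), by group, with filled points for arrays on which the probe was detected. Klf4 probe ILMN_2999439 lies between 4.31 and 4.95 in all OKMS6 groups and the other Klf4 probes on that platform above 8.0 there, and Myc probe ILMN_2623526 is above 7.8 in OKMS6 groups alone.

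**Figure D2:**
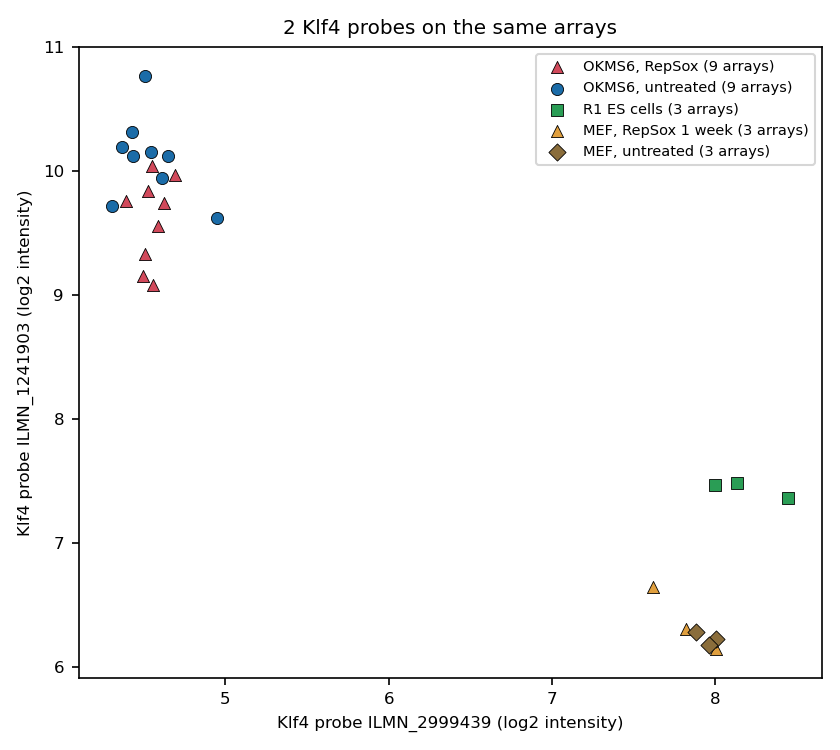
Log2 intensity of Klf4 probe ILMN_1241903 (vertical axis) against Klf4 probe ILMN_2999439 (horizontal axis), a point for each of 27 arrays. The 18 OKMS6 arrays lie at the upper left, and the R1 and fibroblast arrays at the lower right, with no array between.

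Myc RNA was detected in OKMS6 cells and hardly elsewhere. Probe ILMN_2623526 read 8.77 to 9.68 over the 9 untreated OKMS6 arrays (median 9.20), against 4.56, 4.62 and 4.52 in R1 and 4.39, 4.61 and 4.75 in untreated fibroblasts, detected on none of those R1 and fibroblast arrays. Untreated OKMS6 cells were at least 22.3-fold above R1 and at least 20.6-fold above fibroblasts. The probe passed the detection filter only because of OKMS6 arrays and had to be higher there, so no p-value is given for this direction. Outside OKMS6 the probe was detected on 1 of 3 arrays of fibroblasts with RepSox, at 5.31, on 1 of 3 iPS arrays, at 5.18, and on 0 of 3 V6.5 arrays. The other Myc probe, ILMN_1231123, was detected on no array of either platform (0 of 33) and was not tested, so only 1 probe speaks for Myc.

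Of the 6 tested probes, 3 were called higher and 1 lower in untreated OKMS6 cells than in R1, at an adjusted p under 0.05. Over all 15476 probes 64% were called in that comparison, 34.5% higher and 29.4% lower. Against fibroblasts 5 were called higher and 1 lower, with 71.5% of all probes called, 39.5% higher and 32% lower. Between R1 and fibroblasts 4 were called, all higher in R1, with 69.1% called over all probes, 35.3% higher and 33.8% lower. The Myc probe is among those called higher in OKMS6, a direction set by the detection filter. Both Pou5f1 probes, detected on no fibroblast array, could only be called higher in OKMS6 or R1 than in fibroblasts. The 1 probe called lower in OKMS6 was Klf4 probe ILMN_2999439, detected on 1 of 18 OKMS6 arrays, which could only be called lower there. With most probes called in these comparisons, the counts say little. The results lie in the sizes for the single probes, and in their directions where these were not set in advance.

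In the order of group means, Pou5f1 was highest in the untreated OKMS6 groups and R1, whose arrays overlapped as neighbours, then came the RepSox-treated OKMS6 groups, and fibroblasts last. For Klf4 probes ILMN_1221264 and ILMN_1241903 the order ran from OKMS6 at 24 h through the other OKMS6 groups, with RepSox at 48 h lowest among them, to R1 and then fibroblasts. The step from RepSox-treated OKMS6 at 48 h to R1 and that from R1 to fibroblasts had no overlap on either probe. For ILMN_2999439 R1 and both fibroblast groups overlapped at the top, and a gap separated them from the OKMS6 groups, which were all near background. For Myc the OKMS6 groups came first, and fibroblasts with RepSox, untreated fibroblasts and R1 overlapped at the bottom.

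The iPS arrays, on their own platform and normalized alone, read 10.39, 10.62 and 10.24 for Pou5f1 probe ILMN_1217100 and 10.26, 10.49 and 10.74 for ILMN_1252910. Klf4 read 6.90, 6.44 and 6.51 on ILMN_1221264 and 7.44, 7.91 and 7.69 on ILMN_1241903. Those Klf4 readings lay nearer to the R1 levels than to any OKMS6 level, but the platforms differ and no test was made. The iPS platform had no ILMN_2999439 and in its place held ILMN_2593684, which read 9.34, 9.65 and 9.41, detected on every array. Fibroblast marker RNA was present on these arrays, as given above, and its part in the Klf4 levels was not tested.

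The V6.5 arrays went apart on Pou5f1 and Klf4. Replicate 2 read 9.92 and 10.78 on the Pou5f1 probes, while replicates 1 and 3 read 5.18 and 5.57 on ILMN_1217100 and 5.17 and 6.40 on ILMN_1252910. On ILMN_1241903 replicate 2 read 7.79, and replicates 1 and 3 read 4.29 and 4.24, not detected. On ILMN_2999439, however, all 3 arrays were bright, at 8.19, 9.10 and 7.99. The dim replicates detected 5 and 7 of 9 stem cell markers, at mean log2 levels of 8.54 and 8.81 against 9.71 to 9.78 in R1, and the part of their low signal in the low Pou5f1 values was not tested.

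Partner genes of the pluripotency network were set beside Pou5f1, from a list of 25 genes of which 21 were measured. These 21 were called lower in untreated OKMS6 cells than in R1, with a median difference of -3.36 on the log2 scale (-3.09 with the 8 genes undetected in OKMS6 at their bound), against 31.1% lower and a median of 0.05 over 10503 genes. Of the 21, 4 passed the detection filter through the R1 arrays alone and had to be lower in OKMS6. The 7 genes detected on every untreated OKMS6 array were called lower too, by differences of -0.38 to -2.15. Nanog, a homeodomain factor of the core network, averaged 4.55 in untreated OKMS6 cells, detected on 3 of 9 arrays, and 11.53 in R1, at least 104-fold lower in OKMS6 (adjusted p = 8.71e-29). Esrrb, an orphan nuclear receptor of the same network, was detected on 0 of 9 untreated OKMS6 arrays and was at least 105-fold lower than in R1. Sox2, the DNA-binding partner of Pou5f1, averaged 4.73 in untreated OKMS6 cells, detected on 3 of 9 arrays, and 7.82 in R1, at least 7.90-fold lower in OKMS6. The labels name viral Sox2 for this line, and whether the Sox2 probe used here reads a viral copy was not tested. Fbxo15, a target gene of Pou5f1 and Sox2, differed little by comparison, at 11.33 in untreated OKMS6 cells and 11.84 in R1 (-0.51 ± 0.07, adjusted p = 8.46e-07). The Pou5f1 probes, by comparison, were not called different between untreated OKMS6 cells and R1.

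**Figure D3:**
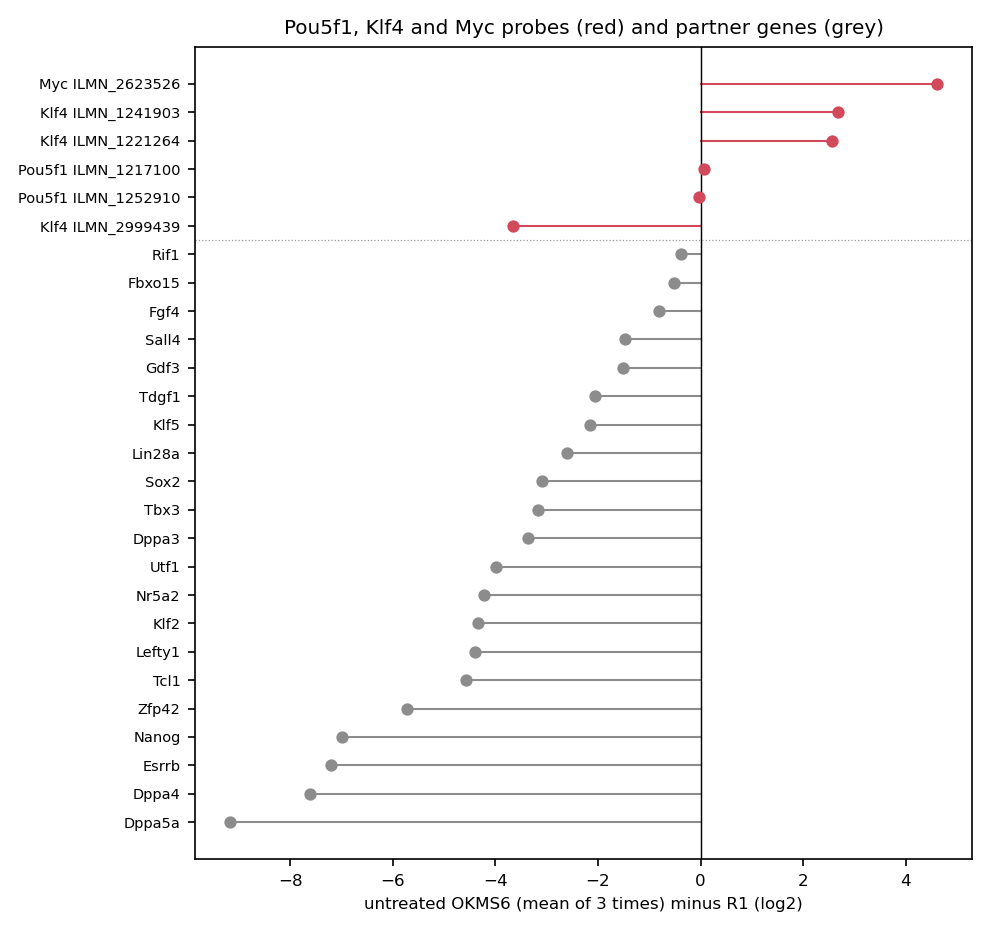
Difference of untreated OKMS6 cells (mean of 3 times) minus R1 on the log2 scale for the 6 tested probes of Pou5f1, Klf4 and Myc (red) and the 21 measured partner genes (grey). The Pou5f1 probes lie at 0.06 and -0.03, while the 7 partner genes detected on every untreated OKMS6 array run from -0.38 to -2.15. Every partner gene further to the left was undetected on some or all untreated OKMS6 arrays, so their points rest in part or wholly on background values. Dppa5a was detected on 4 of 9, while Utf1 was undetected only on replicates 2 and 3 at 10 h.

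From a list of 30 genes of the Myc family, the Max network and Myc targets, 27 were measured. In untreated OKMS6 cells 14 were called higher and 6 lower than in R1, with a median difference of 0.35, and 21 higher and 4 lower than in fibroblasts, with a median of 1.05. Over all 10503 genes 34.4% were higher and 31.1% lower than in R1, and 39.2% higher and 33% lower than in fibroblasts. Max, the binding partner of Myc, averaged 10.39 in untreated OKMS6 cells and 9.21 in R1 (difference 1.18 ± 0.10, adjusted p = 9.1e-11). Mycl, a Myc paralog, averaged 5.06 in untreated OKMS6 cells and 6.16 in R1 (difference -1.11 ± 0.12, adjusted p = 6.28e-09).

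With RepSox the probes of all 3 genes fell in OKMS6 cells by 48 h, while the dim Klf4 probe was near background with and without it. The called probes fell to between 0.466 and 0.539 times the untreated level. Pou5f1 probe ILMN_1252910 read 10.47, 10.65 and 11.08 in RepSox-treated cells at 48 h, against 11.63, 12.12 and 11.75 in untreated cells. It fell by 1.10 ± 0.14 (SE) on the log2 scale (adjusted p = 8.39e-07). ILMN_1217100 read 9.75, 9.95 and 10.01 in treated cells, against 10.84, 10.91 and 10.64 in untreated cells, a change of -0.89 ± 0.15 (adjusted p = 3.13e-05). The treated and untreated arrays did not overlap on either probe.

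Klf4 probe ILMN_1241903 read 9.08, 9.15 and 9.33 in treated cells at 48 h, against 10.12, 10.32 and 10.12 in untreated cells, a change of -1.0 ± 0.17 (adjusted p = 6.4e-05). ILMN_1221264 read 8.04, 8.02 and 8.19 in treated cells, against 9.07, 9.14 and 8.73 in untreated cells, a change of -0.90 ± 0.17 (adjusted p = 0.000119). Again no treated array reached an untreated one. ILMN_2999439 was detected on none of these 6 arrays and averaged 4.52 in treated and 4.50 in untreated cells. Myc probe ILMN_2623526 read 7.83, 8.02 and 8.18 in treated cells, against 9.19, 9.30 and 8.83 in untreated cells, a change of -1.09 ± 0.18 (adjusted p = 2.76e-05). Of the 6 probes 5 were called at 48 h, all lower, with 31.1% of all probes called, 15.5% lower and 15.6% higher. Without both arrays numbered 3 the 5 probes stayed called, at -1.02 and -1.32 for Pou5f1 (ILMN_1217100 and ILMN_1252910), -1.08 and -1.10 for Klf4 (ILMN_1221264 and ILMN_1241903) and -1.32 for Myc. In the authors' processed table, with the names as they stand there, the 5 changes were -0.46 to -0.63 and none was called.

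At earlier times the genes differed in whether they passed the test. At 10 h both Pou5f1 probes were called lower, with changes of -0.57 ± 0.15 (adjusted p = 0.0118) for ILMN_1217100 and -0.55 ± 0.14 (adjusted p = 0.0104) for ILMN_1252910. ILMN_1217100 read 10.21, 10.41 and 10.03 in treated cells at 10 h, against 10.56, 10.93 and 10.87 in untreated cells. These groups did not overlap, but the calls did not hold in every fit that left out 1 array. Without untreated replicate 2 at 10 h neither probe was called, at changes of -0.49 and -0.48, and ILMN_1217100 also lost its call without untreated replicate 3 (-0.52) or without RepSox replicate 3 (-0.47). The Klf4 changes at 10 h were -0.23 ± 0.17 (adjusted p = 0.469) and -0.19 ± 0.17 (adjusted p = 0.629), and that of Myc was -0.41 ± 0.18 (adjusted p = 0.155). Of the 6 probes 2 were called at 10 h, with 11.1% called over all probes, 6.02% higher and 5.12% lower.

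At 24 h Pou5f1 probe ILMN_1252910 fell by 0.63 ± 0.14 (adjusted p = 0.00174), and Myc fell by 0.54 ± 0.18 (adjusted p = 0.0294). Myc read 8.81, 8.78 and 8.71 in treated cells at 24 h, against 9.05, 9.20 and 9.68 in untreated cells, and without untreated replicate 3 its change was -0.36 and not called. It also lost its call without any 1 of the 3 treated replicates, at -0.57, -0.55 and -0.52. Pou5f1 probe ILMN_1217100 gave -0.37 ± 0.15 (adjusted p = 0.0743) with no overlap between groups, and without RepSox replicate 2 it was -0.51 and called. Klf4 gave -0.36 ± 0.17 (adjusted p = 0.121) and -0.31 ± 0.17 (adjusted p = 0.228), and without untreated replicate 1 these were -0.55 and -0.56, both called. Of the 6 probes 2 were called at 24 h, with 22.4% called over all probes, 11.4% higher and 11% lower. Mean scanner signals at 24 h were 147 to 201 on treated arrays and 217 to 238 on untreated arrays, and with arrays scaled to their medians 5 of the 6 were called, with 25.6% of all called probes higher on that scale against 51% on the main one. The part of array brightness in the 24 h values was not tested.

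The RepSox effect differed between times on 1 of the 6 probes. For Klf4 probe ILMN_1241903 the moderated F test gave an adjusted p of 0.03, for ILMN_1221264 it gave 0.0745, for the Pou5f1 probes 0.156 and 0.0808, and for Myc 0.0973. Over all probes 24.1% were called in that test. Klf4 probe ILMN_1241903 lost that call without untreated replicate 1 at 10 h, untreated replicate 2 at 48 h or RepSox replicate 1 or 2 at 48 h (adjusted p from 0.056 to 0.0872), and leaving out 1 array gave 0 to 3 called of 6. Without both 48 h arrays numbered 3 it was 3 of 6, and Klf4 probe ILMN_1241903 then missed the threshold (adjusted p = 0.0507). Whether the timing differed between the genes was not tested. Among untreated OKMS6 arrays, Pou5f1 probe ILMN_1252910 was the 1 probe of 6 that differed between times (adjusted p = 0.0219), averaging 11.35 at 10 h, 11.59 at 24 h and 11.83 at 48 h, and 44% of all probes were called in that test. It lost that call without untreated replicate 1 or 3 at 10 h or untreated replicate 2 at 48 h, and leaving out 1 array gave 0 to 3 called of 6 there.

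**Figure D4:**
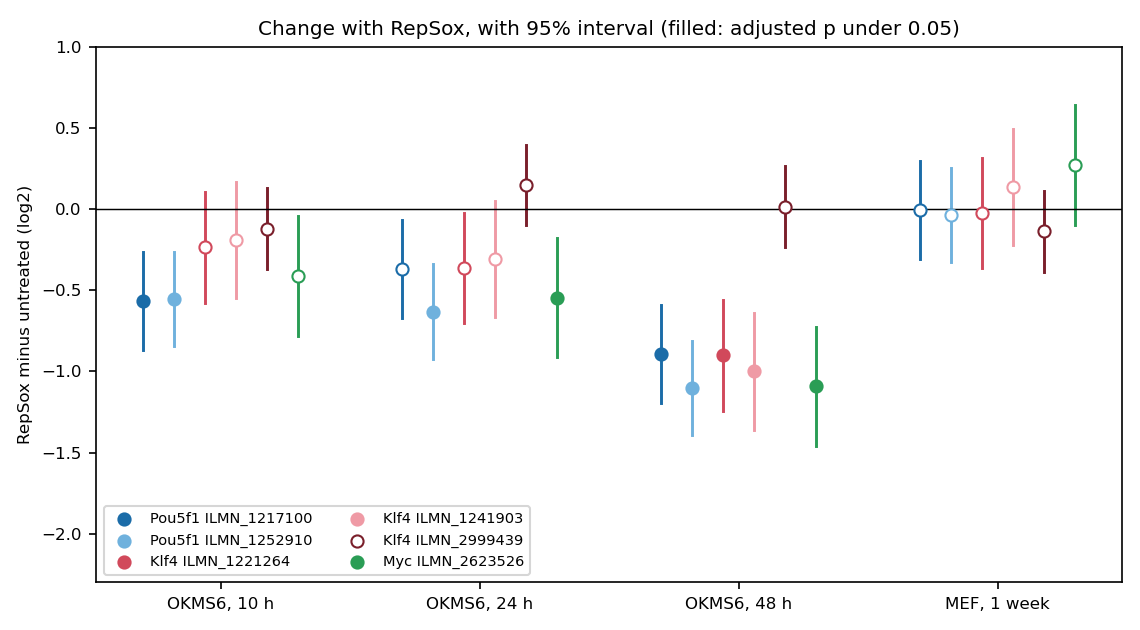
Change with RepSox (treated minus untreated, log2) of each tested probe in OKMS6 cells at 10, 24 and 48 h and in fibroblasts after 1 week, with 95% intervals and filled points for an adjusted p under 0.05. At 48 h the Pou5f1 and Myc probes and 2 Klf4 probes lie between -0.89 and -1.10, while the third Klf4 probe and all probes in fibroblasts have intervals that include 0.

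In fibroblasts 1 week with RepSox gave no call for the 3 genes. By limma 0 of the 6 probes were called, and 0 of 6 had an unadjusted p under 0.05, while 26.5% of all probes were called, 12.7% higher and 13.8% lower. Klf4, which fibroblasts express, read 7.82, 8.0 and 7.62 on ILMN_2999439 in RepSox-treated fibroblasts, against 8.0, 7.96 and 7.88 in untreated ones (-0.14 ± 0.12, 95% interval -0.38 to 0.11). On ILMN_1241903 the change was 0.14 ± 0.17 (-0.22 to 0.50) and on ILMN_1221264 -0.02 ± 0.17 (-0.36 to 0.32). For ILMN_1241903 and ILMN_1221264 the intervals do not reach the change measured in OKMS6 cells at 48 h. Pou5f1 was detected on 0 of 3 arrays in either fibroblast group.

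The difference of the 2 effects was tested too. The effect in fibroblasts minus that in OKMS6 cells at 48 h was 1.14 ± 0.25 for Klf4 probe ILMN_1241903 (adjusted p = 0.00075) and 0.88 ± 0.23 for ILMN_1221264 (adjusted p = 0.00498). For Pou5f1, detected on no fibroblast array, and Myc, detected on 1 of 6, it was 0.89 ± 0.21, 1.07 ± 0.20 and 1.36 ± 0.25. Together 5 of 6 probes were called, but only these 2 Klf4 probes compare a measured effect in both cell types. The Pou5f1 and Myc values repeat the change in OKMS6. The probe not called was Klf4 probe ILMN_2999439, bright in fibroblasts but near background in OKMS6 cells, where a fall could not be seen. The share of all probes called was 31.6%, with 15.7% higher and 15.9% lower. Exposure was 1 week in fibroblasts and 48 h in OKMS6 cells, so time and cell type cannot be told apart in this comparison.

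After 48 h with RepSox, Pou5f1 in OKMS6 cells was below R1, with differences of -0.79 ± 0.15 (adjusted p = 4.78e-05) and -0.89 ± 0.14 (adjusted p = 5.62e-06). The R1 arrays are the same as in the comparison with untreated cells. Klf4 was above R1 on ILMN_1221264 (1.66 ± 0.17) and ILMN_1241903 (1.75 ± 0.17) and at least 10.6-fold below R1 on ILMN_2999439. Myc was at least 10.0-fold above R1, a direction again set by the detection filter. ILMN_2999439, near background in OKMS6, could again only be called lower there. All 6 probes were called, 3 higher and 3 lower, with 55.3% of all probes called, 29% higher and 26.3% lower. Without both arrays numbered 3 these were -0.85 and -1.07 for Pou5f1, 1.60 and 1.68 for the bright Klf4 probes, and all 6 probes were called. The split between Klf4 probes was seen in treated cells too: ILMN_1241903 minus ILMN_2999439 was 4.67 ± 0.15 in RepSox-treated cells at 48 h, against 5.68 ± 0.21 in untreated cells (SD, n = 3 each).

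While Pou5f1, Klf4 and Myc fell at 48 h, listed partner genes moved both ways. Of the 21 measured, 7 rose and 3 fell with RepSox at 48 h, with a median change of 0.09, against 15.7% up and 16.8% down over all genes. Nanog averaged 7.67 in treated cells and 4.81 in untreated cells (2.85 ± 0.10, adjusted p = 4.83e-17). Dppa5a, an RNA-binding protein of pluripotent cells, averaged 7.13 in treated cells and 5.0 in untreated cells (2.13 ± 0.11, adjusted p = 2.33e-14). Tdgf1, a co-receptor of Nodal, averaged 5.80 in treated cells and 8.54 in untreated cells (-2.73 ± 0.19, adjusted p = 1.17e-11). Utf1, a chromatin factor of stem cells, was detected on 0 of 3 treated arrays and 3 of 3 untreated ones and was at least 1.52-fold lower in treated cells (adjusted p = 1.52e-08). Sox2 was near background, averaging 4.59 in treated and 4.58 in untreated cells. Without both arrays numbered 3, 6 of the 21 rose and 3 fell at 48 h, with Nanog at 2.89, Dppa5a at 2.14 and Tdgf1 at -2.42. At 10 h 2 of the 21 rose and 1 fell, near the 7.02% up and 5.22% down over all genes. At 24 h 7 rose and 2 fell, against 12.9% up and 10.9% down over all genes.

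Of the 27 measured genes of the Myc list, 2 rose and 10 fell with RepSox at 24 h, with a median of -0.31, when the Myc probe changed by -0.54. At 48 h, when Myc was lowest, 7 rose and 1 fell, with a median of -0.0012, and without both arrays numbered 3 it was 4 that rose and 3 that fell. Over all genes 12.9% rose and 10.9% fell at 24 h, and 15.7% rose and 16.8% fell at 48 h. Tfrc, the transferrin receptor, averaged 10.81 in treated and 11.65 in untreated cells at 24 h (-0.84 ± 0.10, adjusted p = 4.33e-07) and 10.45 in treated and 9.46 in untreated cells at 48 h (0.99 ± 0.10, adjusted p = 1.18e-08). Ncl, or nucleolin, rose by 0.71 ± 0.15 (adjusted p = 0.000464) and Ran, a GTPase of nuclear transport, by 0.52 ± 0.11 (adjusted p = 0.000521) at 48 h. Mxi1, a Max partner that acts against Myc, averaged 7.17 in treated and 8.21 in untreated cells at 48 h (-1.04 ± 0.18, adjusted p = 7.49e-05). Without both arrays numbered 3 these 48 h changes were 0.99 for Tfrc, 0.70 for Ncl, 0.42 for Ran and -0.89 for Mxi1, all called. In fibroblasts with RepSox 3 of the list rose and 0 fell, against 12.8% up and 15.3% down over all genes. Among the 3 was Mycl, at 7.57 with RepSox and 5.62 without (1.95 ± 0.14, adjusted p = 2.76e-11).

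The probes were also compared by how they varied together. Over the 18 OKMS6 arrays, after each array's group mean was taken off, the 2 bright Klf4 probes correlated at 0.89 (Pearson's r), and they correlated with the Myc probe at 0.86 and 0.85. The Pou5f1 probes correlated at 0.62 with each other and at 0.13 to 0.42 with the bright Klf4 probes. Against all probes the median r was between -0.02 and 0.01, and the 95th percentile was 0.48 to 0.59. The points share arrays and their scaling, so this is a description without a test: within a group, arrays high in Klf4 were also high in Myc, and less so in Pou5f1.

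By pattern over the 27 fitted arrays, the genes most like a probe were named by Pearson's r, the 3 highest for each. For Pou5f1 these were Rpusd4 (0.990), Dyrk3 (0.989) and Nvl (0.987) on ILMN_1217100 and Smagp (0.991), Fbxo15 (0.990) and Dyrk3 (0.989) on ILMN_1252910. For the bright Klf4 probes they were Map3k6, Mindy1 and Nccrp1 (0.983, 0.983 and 0.979) on ILMN_1221264 and Mindy1, Atp2a3 and Itgb4 (0.982, 0.981 and 0.979) on ILMN_1241903. For Myc they were Crybg1 (0.989), Nccrp1 (0.988) and Lpcat4 (0.987). For ILMN_2999439 they were Hebp2 (0.994), Acta1 (0.993) and Gata6 (0.992), a list that shares no gene with those of the other Klf4 probes. These correlations rest on differences between cell types that many probes share.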

How the data were processed

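RNA was amplified to biotin-labelled cRNA, hybridised to Illumina bead arrays and read in BeadStudio, per the labels' protocols and the submitters' processing notes. The authors deposited probe intensities and detection p-values per array for both platforms. They also deposited a processed table for each platform. That of the larger one held intensities on a linear scale, some below 0, with column medians of 10.66 to 10.71, that ranked probes within an array as the scanner intensities did, and the sources used here do not give its scaling method. The processed table carried the names of the treated and untreated 48 h arrays numbered 3 exchanged: the rank correlation with the scanner column was 0.931 under its own name and 1.00 under the other. It served as an alternative.

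From the intensities, background was corrected by normexp with the background inferred from detection p-values, followed by quantile normalization and log2 with an offset of 16 (neqc, limma 3.58.1, R 4.3.3), over the 30 arrays of the larger platform. The filter kept 15476 probes, those detected (p under 0.05) on 3 or more of 27 arrays. Group means of 9 groups were fitted with lmFit and eBayes (18 residual degrees of freedom), with Benjamini-Hochberg adjustment over all probes kept, and called at an adjusted p under 0.05. V6.5 was left out because its 2 dim arrays widen the spread, a choice made with earlier results known. The iPS arrays were normalized alone and not tested. Every adjusted p given is from limma, and the fit was tested on simulated data. That simulation drew independent errors and changed few probes, so it cannot show how p-values behave on arrays that may be technical replicates. Differences between probes of a gene on the same array were looked at after the values were seen. Exact permutation tests were run on them, but their p-values are not given for that reason. A probe or gene undetected on most arrays of a group has only a bound there.

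All probes of the 3 genes were named, the 3 most correlated genes for each tested probe and up to 4 genes a list with the smallest p at 48 h. Other genes named (Sox2, Esrrb, Fbxo15, Max and Mycl) were chosen after their values were seen. The members and lists were chosen with earlier results of these data known. A list used 1 probe a gene, that with the highest mean. Arrays give no read depth, and the number of arrays limits the precision. Alternatives changed the arrays fitted, the background correction, the scaling, the filter, array weights and the values used, and left out each array in turn.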

Additional observations from a re-analysis of the deposited data

Results flagged for a closer look

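The RepSox effect on Klf4 differed between fibroblasts after 1 week and OKMS6 cells at 48 h, by the test of the difference itself. The effect in fibroblasts minus that in OKMS6 cells was 0.88 for probe ILMN_1221264 and 1.14 for ILMN_1241903, on the log2 scale. The same difference was 0.89 and 1.07 for Pou5f1 probes ILMN_1217100 and ILMN_1252910 and 1.36 for Myc probe ILMN_2623526, but Pou5f1 was detected on 0 of 6 fibroblast arrays and Myc on 1 of 6, so a fall could not be seen there and these values repeat the change in OKMS6. Without both 48 h arrays numbered 3 all 5 were called, the Klf4 values being 1.05 and 1.24. Of the 3 genes, Klf4 alone was detected on every array of both cell types, on ILMN_1221264 and ILMN_1241903. The third Klf4 probe, ILMN_2999439, was near background in OKMS6 cells and was not called. Its difference ran from -0.36 to -0.05 over 24 alternatives, called in 0 of them. The RepSox effect also differed between 10, 24 and 48 h for Klf4 probe ILMN_1241903 (limma, adjusted p = 0.0300), a call that 4 of the fits leaving out 1 array did not give.

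V6.5, which entered no comparison, had signal on 1 or more arrays that stood above every fibroblast array. Its highest array read 9.92 and 10.78 on the Pou5f1 probes ILMN_1217100 and ILMN_1252910, and 6.91, 7.79 and 9.10 on the Klf4 probes ILMN_1221264, ILMN_1241903 and ILMN_2999439. All of these were replicate 2, the V6.5 array with the higher scanner signal.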

How the results depend on the processing

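Counts of called probes among the 6 tested depended on the arrays in the fit and on the values used. With all 30 arrays, V6.5 included, the counts were 0 at 10 h, 0 at 24 h, 1 at 48 h, 2 for R1 against fibroblasts, 0 for the effect between times, 0 for untreated cells across times and 1 for the difference between cell types, against 2, 2, 5, 4, 1, 1 and 5. In the authors' processed table they were 0 at 10, 24 and 48 h, 0 between times and 0 for the difference between cell types, and at 48 h limma called 0 of 15476 probes there, with 646 at an unadjusted p under 0.05. Over all probes that table gave 746 called at 10 h, 2140 at 24 h, 216 between times and 1632 for the difference between cell types. The main fit gave 1724, 3471, 3724 and 4890, so calls were fewer over all probes too. Without both 48 h arrays numbered 3, that table gave 1 at 24 h and 2 for untreated cells across times, and the scanner values gave 3 for the effect between times. Median scaling gave 5 at 24 h and 3 for untreated cells across times, with 4472 and 7536 of all probes called, against 3471 and 6807 in the main fit. No detection filter gave 1 at 24 h and 0 between times, no background correction 2 between times, and array weights 5 between times and 2 for untreated cells across times. Same-numbered arrays of the groups compared had correlations of -0.31 to 0.32 in their deviations from the group means (0.22, 0.09 and 0.32 at 48 h), in no comparison all over 0.1, so the numbers were not taken as pairs. The replicate block gave 2 between times, and in it Pou5f1 probe ILMN_1217100 was called at 24 h (adjusted p = 0.0363). For the other settings, left-out arrays included, calls over all probes are not given here. A change for these genes and a general change of calls cannot be told apart there. The causes were not tested.

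Leaving out 1 array in turn gave 0 to 2 called probes at 10 h, 1 to 4 at 24 h, 5 to 5 at 48 h, 0 to 0 in fibroblasts, 4 to 4 for OKMS6 against R1, 6 to 6 for OKMS6 against fibroblasts, 4 to 5 for R1 against fibroblasts, 6 to 6 for treated OKMS6 against R1, 0 to 3 in the RepSox effect across times, 0 to 3 among untreated cells and 5 to 5 for the difference between cell types. Pou5f1 probe ILMN_1252910 reversed in OKMS6 against R1 under median scaling, at 0.27 (adjusted p = 0.048) against -0.03. That scaling moved the share of called probes that were higher to 68.3% from 54.0% for OKMS6 against R1, to 66.4% from 55.2% for OKMS6 against fibroblasts and to 68.6% from 52.5% for treated OKMS6 at 48 h against R1. Over the 816 values of single probes under alternatives other than a left-out array, 753 kept direction and call, 39 lost the call, 23 gained it and 1 reversed.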
